A study of Mus musculus with 10 samples.

Results

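Transcripts of the interferon response and of antigen presentation were followed in the medial habenula, an epithalamic nucleus whose cholinergic neurons carry many nicotinic receptors, of mice withdrawn from nicotine and of saline controls. The genes were a list of 49 mouse symbols, and a gene was kept where its FPKM averaged 0.3 or more across all 10 libraries. FPKM is a read number scaled to gene length and library total. The floor kept 48 of the 49, among 19256 genes that passed it out of 56691 in all. Ifi44 lay just outside it at 0.285 FPKM and Mx1 just inside it at 0.322 FPKM.

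RNA was sequenced from 10 wild-type mice, 1 library per mouse as the study describes it. In the withdrawal group, 6 mice received nicotine ditartrate by intraperitoneal injection at 4 mg/kg, with 2 injections a day over 14 days, and saline in its place starting on day 15. In the control group, 4 mice received saline for 17 days. Tissue was taken on day 17 in both groups. Strain, sex, age, litter and any batch are not given by the labels or the series record, and p-values measure only the spread between these libraries.

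Library totals ran from 16667113 to 20276566 counts in withdrawal and from 15023448 to 22026333 counts in control. The labels name the material in 2 ways, as cholinergic neurons sorted by flow cytometry and as brain tissue. The 8 medial habenula markers, Chrna3 and Pou4f1 the most abundant among them, summed to 556 to 861 CPM (counts scaled to the library total) in 5 withdrawal libraries and to 612 to 853 CPM in 3 control libraries, but only to 12.5 CPM in withdrawal 2 and 15.1 CPM in control 2. Oligodendrocyte markers, Mbp among them, summed to 5820 to 14340 CPM in withdrawal and 8649 to 12210 CPM in control, so oligodendrocyte RNA was abundant in every library. The hippocampal and cortical markers, led by Prox1 and Wfs1, reached 491 CPM in withdrawal 2 and 1932 CPM in control 2, against 136 to 174 CPM in the other withdrawal libraries and 256 to 554 CPM in the other controls. Withdrawal 2 and control 2 thus went against their tissue label, and results are given for all 10 libraries and for the 8 without them.

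Interferons are cytokines that cells release when they sense foreign or misplaced nucleic acid. They bind surface receptors whose JAK kinases activate STAT proteins, and these, with IRF9, bind the interferon-stimulated response element in the promoters of many antiviral genes. The same signals raise MHC class I presentation, in which the immunoproteasome cuts proteins to peptides, the TAP transporter carries them into the endoplasmic reticulum, and B2m with a heavy chain shows them at the cell surface. In the healthy brain these genes are kept low, and glia and vessel cells are well-known sources of them besides neurons. In bulk RNA, a change in the number of such cells and a change in their RNA cannot be told apart.

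Promoter sequence is shown first, as a description that uses no expression values. Many antiviral genes carry the response element, so its share among listed interferon-response genes is not independent of how the list was made. Windows of 300 bases, 250 before and 50 after each gene start, came from RefSeq on build GRCm38.p6 and were present for 38 of the 49 members. The letters GAAANNGAA, the core of the interferon-stimulated response element, were searched on both strands. They occurred in 19 of the 38 members' windows, against 9.76% of 27025 gene symbols with a window. The letters TTCNNNGAA, the core of the gamma-activated site, which read the same on both strands, occurred in 8 of the 38 (21.1%), against 9.55% of all symbols. Matches to the 2 motifs overlapped in Bst2 and Ifitm3. A match is a description of letters and not a measured binding site.

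The following 70-base stretches lie before the gene start and are written 5′ to 3′ along the gene's strand. They were chosen because they hold GAAANNGAA, or its reverse complement TTCNNTTTC, in members described further on. Capitals mark the matches.
Ifit1: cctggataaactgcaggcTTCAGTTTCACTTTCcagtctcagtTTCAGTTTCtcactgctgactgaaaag
Ifit3: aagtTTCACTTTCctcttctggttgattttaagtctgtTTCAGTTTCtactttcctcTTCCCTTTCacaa
Ifit3b: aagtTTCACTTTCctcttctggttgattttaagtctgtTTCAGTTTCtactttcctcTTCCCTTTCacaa
Isg15: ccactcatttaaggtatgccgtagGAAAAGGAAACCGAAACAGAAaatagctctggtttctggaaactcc
Bst2: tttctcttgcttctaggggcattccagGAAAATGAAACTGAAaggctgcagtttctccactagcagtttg
Rsad2: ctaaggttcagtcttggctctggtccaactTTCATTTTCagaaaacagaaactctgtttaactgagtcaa
B2m: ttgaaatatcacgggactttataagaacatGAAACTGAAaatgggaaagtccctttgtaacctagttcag

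The stretches of Ifit1 (chr19:34640762-34640831), Ifit3 (chr19:34583370-34583439) and Ifit3b (chr19:34607766-34607835) are on the plus strand, and each holds 3 matches. Those of Ifit3 and Ifit3b were identical over all 70 bases, and their whole windows matched at 201 of 268 aligned bases. Isg15 (chr4:156200851-156200920, minus strand) holds 3 matches that overlap one another, and Bst2 (chr8:71537560-71537629, minus strand) holds 2. Rsad2 (chr12:26456532-26456601, minus strand) and B2m (chr2:122147518-122147587, plus strand) hold 1 each.

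Most of the 48 genes had higher mean levels in withdrawal, but none passed the test over all genes in the 10 libraries. The log2 change (withdrawal minus control) was above 0 in 45 of 48, where 51.0% of all genes tested were above 0. The median log2 change of the 48 was 0.51, against 0.01 for all genes tested, and the range ran from -0.19 for Ifitm2 to 1.48 for Mx1. The test was edgeR's quasi-likelihood test with Benjamini-Hochberg adjustment over the 19256 genes. It called 0 of the 48 at an adjusted p under 0.05, with 0.0559 the lowest value among them, for Cmpk2. It called 27 genes in all (0.140% of those tested), of which 4 were higher in withdrawal (0.0208%). At an unadjusted edgeR p under 0.05, 18 of the 48 were higher and 0 lower. Of all 19256 genes, 5.87% were higher at that p and 1723 genes were lower. DESeq2 on the same counts called 6 of the 48, all higher (Irf7, Ifit1, Ifit2, Cmpk2, Xaf1 and Psmb8), against 0.836% of all genes called higher, and limma on log2(FPKM + 1) called 0. In 3 of the 48 (Irf7, Ifit1 and Cmpk2) all 6 withdrawal libraries lay above all 4 controls, as in 1.57% of all genes.

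**Figure D1:**
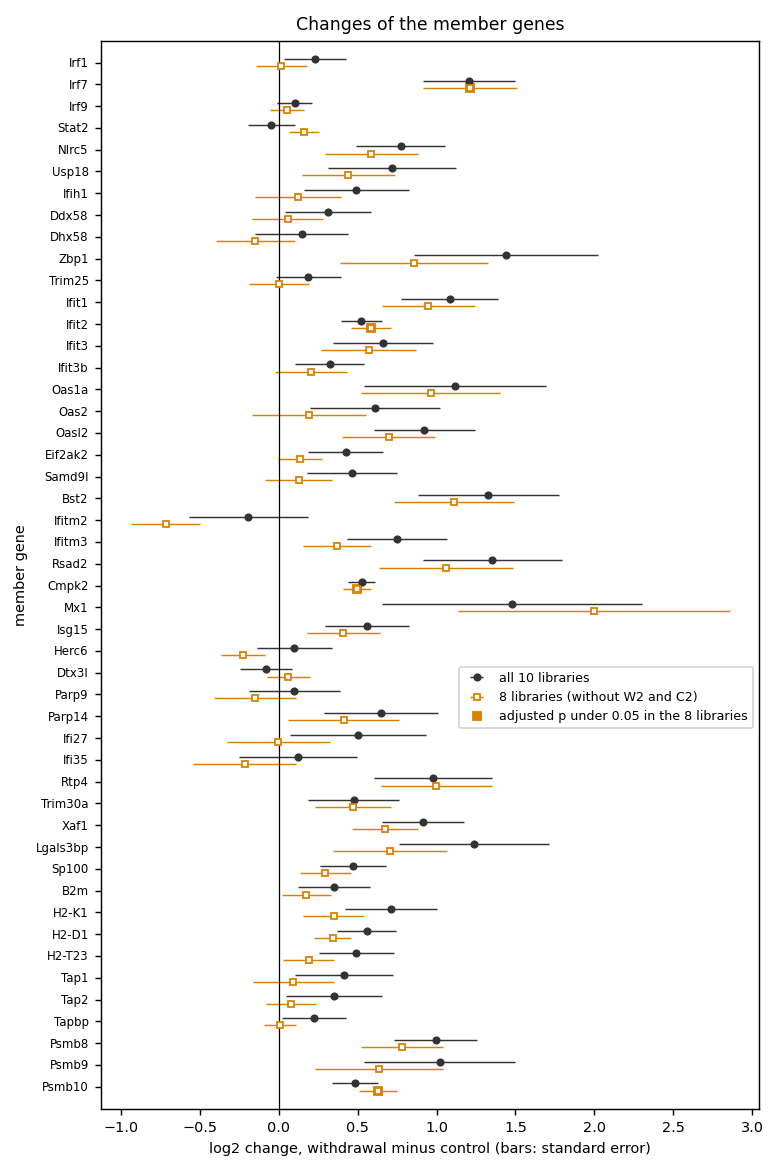
The horizontal axis gives the log2 change, withdrawal minus control, of each of the 48 genes, with the standard error as a bar. Dark circles use all 10 libraries and orange squares the 8 libraries without withdrawal 2 and control 2. Filled squares mark Irf7, Ifit2, Cmpk2 and Psmb10, the 4 genes past the adjusted threshold in the 8 libraries. Most circles lie right of 0, and for many genes the square lies closer to 0.

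In the 8 libraries, 4 of the 48 passed the same edgeR test, all higher in withdrawal. They were Irf7, Ifit2, Cmpk2 and Psmb10. This fit called 2113 genes, with 4.80% of all genes higher and 6.17% lower, so the 4 of 48 stand beside a high background. The log2 change was above 0 in 42 of 48, against 52.1% of all genes, and the median was 0.34, against 0.01 for all genes. In 5 of the 48 (Irf7, Ifit1, Ifit2, Cmpk2 and Psmb10) all withdrawal libraries lay above all controls in these 8 libraries. The same held for 10.4% of all genes, which is close to the share among the 48. When each of the 8 libraries was left out in turn, Cmpk2 and Psmb10 were called in 8 of 8 fits, Ifit2 in 6 and Irf7 in 4. Without control 3 or without control 4, only Cmpk2 and Psmb10 were called. Irf7 also missed the threshold without withdrawal 1 and without withdrawal 4, and its highest edgeR adjusted p over the 8 fits was 0.107, against 0.0626 for Ifit2.

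The withdrawal libraries did not stand together. The mean log2 CPM over the 48 genes was 2.94, 3.80, 2.81, 3.37, 2.73 and 3.51 in withdrawal 1 to 6, against 2.90, 2.37, 2.59 and 2.72 in control 1 to 4. Withdrawal 2, 6 and 4 were high, while withdrawal 3 and 5 lay below control 1, so the groups overlapped. The means were 3.19 ± 0.43 in withdrawal and 2.64 ± 0.22 in control (SD, n = 6 and 4), a difference of 0.55, and without withdrawal 2 and control 2 it was 0.34. Withdrawal 2 held the highest value of the 10 libraries in 35 of the 48 genes, against 13.6% of all genes tested. Control 2 held the lowest in 22, against 27.7% of all genes, and control 3 the lowest in 13, against 6.20%.

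**Figure D2:**
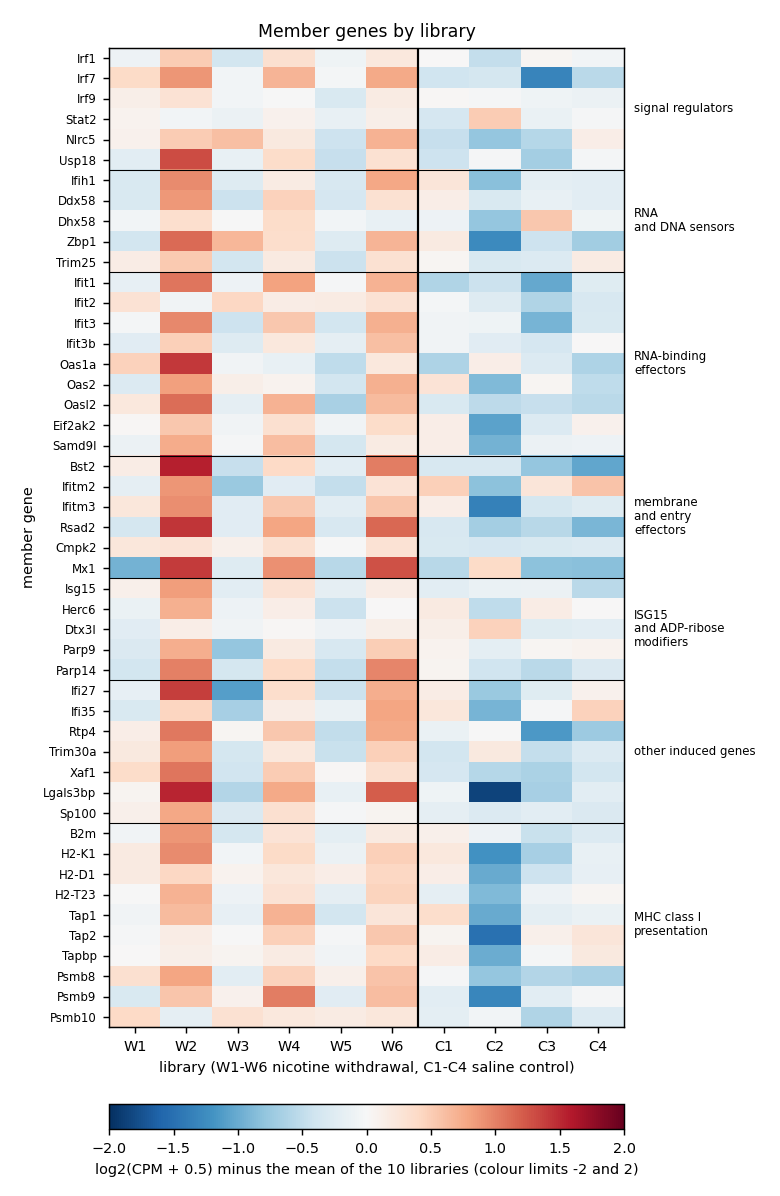
Each row is 1 of the 48 genes, grouped by role, and each column is a library, with withdrawal W1 to W6 left of the control C1 to C4. Colour gives log2(CPM + 0.5) minus the gene's mean over the 10 libraries. W2, W4 and W6 are red in most rows, W3 and W5 are pale or blue in many, and C2 is the deepest blue column in the MHC class I rows.

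Among the signal regulators, Irf7, the factor that amplifies interferon transcription, had the smallest p. Its level ran from 4.51 through a median of 7.04 to 9.02 CPM in withdrawal, and was 3.45, 3.59, 1.59 and 3.06 CPM in control 1 to 4. All 6 withdrawal libraries were above every control, with withdrawal 2, 6 and 4 the highest. The log2 change was 1.203 ± 0.291 (SE) in the 10 libraries, with an edgeR adjusted p of 0.209, and 1.21 ± 0.30 in the 8, with an edgeR adjusted p of 0.0302. Nlrc5, the transactivator of MHC class I genes, had 3.03, 5.54 and 7.09 CPM as the lowest, median and highest withdrawal values, and 2.93, 2.26, 2.68 and 4.68 CPM in control. The groups overlapped through control 4, and the log2 change was 0.77 ± 0.28 in 10 libraries and 0.59 ± 0.29 in 8.

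Stat2, a STAT protein of type I interferon signalling, had the highest FPKM of the regulators. It had 32.4, 36.4 and 39.2 CPM (lowest, median and highest) in withdrawal and 28.5, 51.6, 32.9 and 35.5 CPM in control. Control 2 was the highest of all 10 libraries, and the log2 change was -0.05 ± 0.15 in 10 libraries and 0.16 ± 0.09 in 8. Of the other regulators, Irf1 and Irf9, a pair of transcription factors, had log2 changes of 0.23 and 0.10, and Usp18, which removes Isg15 from proteins and damps receptor signalling, 0.72. Without withdrawal 2 and control 2 these were 0.02, 0.05 and 0.44.

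The sensors of RNA and DNA had a median log2 change of 0.31 in 10 libraries and 0.06 in 8, and 0 of 5 passed either edgeR test. Zbp1, which binds nucleic acid in the Z form, was scarce, at 0.650, 1.62 and 2.76 CPM (lowest, median and highest) in withdrawal and 1.17, 0.110, 0.610 and 0.417 CPM in control. Control 1 was above withdrawal 1 and 5, so the groups overlapped. Its log2 change was 1.44 ± 0.58 in 10 libraries and 0.86 ± 0.47 in 8. Ifih1, the long double-stranded RNA sensor MDA5, had 6.60, 8.21 and 16.6 CPM (lowest, median and highest) in withdrawal and 10.04, 4.47, 7.26 and 7.23 CPM in control. Only withdrawal 2 and 6 were above every control, and the log2 change was 0.49 ± 0.33 in 10 libraries and 0.12 ± 0.27 in 8.

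Trim25, a ubiquitin ligase that acts on RIG-I, had 9.98, 15.3 and 19.9 CPM (lowest, median and highest) in withdrawal and 14.0, 10.9, 11.2 and 15.3 CPM in control. The groups overlapped widely, with a log2 change of 0.19 ± 0.21 in 10 libraries and 0.00 ± 0.19 in 8. Ddx58, which encodes RIG-I, had a log2 change of 0.31 and Dhx58, its relative LGP2, 0.15. Ddx58 was at 0.06 and Dhx58 at -0.15 in the 8 libraries.

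All 9 RNA-binding effectors had log2 changes above 0 in both sets of libraries, with medians of 0.61 in 10 libraries and 0.57 in 8. Ifit1, which holds back the translation of RNA with a foreign cap, had 6.38, 9.51 and 15.7 CPM (lowest, median and highest) in withdrawal and 4.56, 5.19, 3.29 and 6.02 CPM in control. The groups did not overlap, although withdrawal 1, 3 and 5, at 6.38, 6.66 and 7.09 CPM, lay close to control 4. The log2 change was 1.083 ± 0.308 in 10 libraries, with an edgeR adjusted p of 0.261, and 0.95 ± 0.30 in 8, with 0.0671.

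Ifit2, of the same family, had 15.9, 19.6 and 22.4 CPM (lowest, median and highest) in withdrawal and 16.2, 13.85, 10.85 and 13.25 CPM in control. Only withdrawal 2 lay within the controls, below control 1. Its log2 change was 0.52 ± 0.13 in 10 libraries, with an edgeR adjusted p of 0.214, and 0.59 ± 0.13 in 8, with 0.0185. Withdrawal 2, the highest library for most members, was the lowest of its group for Ifit2, and withdrawal 3 was the highest.

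Ifit3, another member of the family, had 9.07, 15.0 and 24.4 CPM (lowest, median and highest) in withdrawal and 11.7, 11.5, 6.22 and 9.87 CPM in control. Withdrawal 3 and 5 lay below control 1, 2 and 4, and the log2 change was 0.66 ± 0.32 in 10 libraries and 0.57 ± 0.30 in 8. Ifit3 shared 41.1% of its 75-base transcript windows with Ifit3b, and Ifit3b shared 35.7% of its own with Ifit3, so reads between this pair are uncertain. Ifit3b had a log2 change of 0.32 in 10 libraries and 0.20 in 8.

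Oasl2, an oligoadenylate synthetase-like protein, had a log2 change of 0.92 ± 0.32 in 10 libraries and 0.70 ± 0.29 in 8, with 5.77, 12.8 and 20.7 CPM (lowest, median and highest) in withdrawal and 7.43, 6.29, 6.65 and 6.21 CPM in control. Withdrawal 5 was its lowest library of all. The oligoadenylate synthetases Oas1a and Oas2 had log2 changes of 1.11 and 0.61 in 10 libraries, and 0.96 and 0.19 in 8. Oas1a shared 47.6% of its windows with Oas1g, and its value is uncertain for that reason. Eif2ak2, the RNA-activated kinase PKR, had a log2 change of 0.42 and Samd9l, which restrains virus growth and cell growth, 0.46, and in the 8 libraries they were at 0.135 and 0.126.

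**Figure D3:**
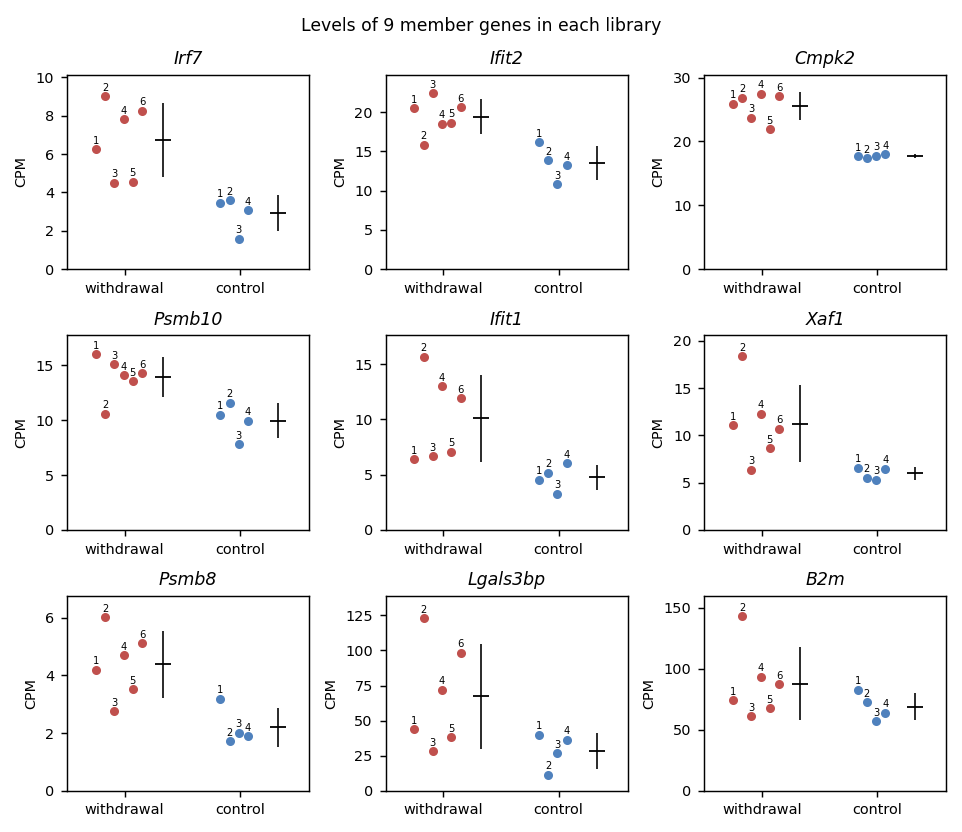
Each panel gives the level of 1 gene in CPM, with numbered points for the 6 withdrawal libraries (red, left) and the 4 control libraries (blue, right) and the mean with its SD beside each group. Cmpk2 has tight controls near 17.7 CPM below all withdrawal points. Withdrawal 2 is at the top for Irf7, Ifit1, Xaf1, Psmb8, Lgals3bp and B2m, and at the bottom of its group for Ifit2 and Psmb10.

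Cmpk2, a mitochondrial nucleotide kinase that sits beside Rsad2 in the genome and is induced with it, had the lowest adjusted p of all members. It had 21.9, 26.4 and 27.5 CPM (lowest, median and highest) in withdrawal and 17.7, 17.4, 17.7 and 18.02 CPM in control. The controls were within 1 CPM of one another, and every withdrawal library was above them, withdrawal 3 and 5 included. Means were 25.5 ± 2.2 CPM in withdrawal and 17.7 ± 0.27 CPM in control (SD, n = 6 and 4). Its log2 change was 0.53 ± 0.08 in 10 libraries, with an edgeR adjusted p of 0.0559, and 0.50 ± 0.09 in 8, with 0.00909. With a stricter floor of 1 FPKM for the genes tested, its edgeR adjusted p in the 10 libraries was 0.0415.

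Rsad2, the antiviral enzyme viperin, had a larger and more uneven difference than its neighbour. It had 3.19, 5.58 and 12.1 CPM (lowest, median and highest) in withdrawal and 3.26, 2.43, 2.68 and 1.99 CPM in control. Withdrawal 1, at 3.19 CPM, lay below control 1, and withdrawal 3 and 5 just above it. Its log2 change was 1.35 ± 0.44 in 10 libraries and 1.06 ± 0.42 in 8, with edgeR adjusted p-values of 0.272 and 0.136.

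Ifitm3, a membrane protein that blocks virus entry, had the highest FPKM of its group. It had 13.5, 21.0 and 30.9 CPM (lowest, median and highest) in withdrawal and 17.4, 5.96, 12.4 and 13.25 CPM in control. Withdrawal 3 and 5 lay below control 1, and the log2 change was 0.75 ± 0.32 in 10 libraries and 0.37 ± 0.21 in 8. Its relative Ifitm2 was below 0 in both sets, at -0.19 ± 0.38 and -0.72 ± 0.22, with an edgeR adjusted p of 0.0615 in 8. Ifitm2 shared 42.0% of its windows with other annotated genes, and its counts are uncertain. Bst2, which tethers budding viruses to the membrane, had a log2 change of 1.33 ± 0.45 in 10 libraries and 1.11 ± 0.38 in 8, with 2.61, 4.71 and 12.1 CPM (lowest, median and highest) in withdrawal and 2.93, 2.92, 2.01 and 1.57 CPM in control. Mx1, an antiviral GTPase, had the largest log2 change of the 48 with the largest error, 1.48 ± 0.82 in 10 libraries and 1.995 ± 0.861 in 8, at 0.177 to 2.96 CPM in withdrawal and 0.232 to 1.21 CPM in control.

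The genes of ISG15 and ADP-ribose modification had a median log2 change of 0.10 in 10 libraries and 0.06 in 8, with 0 of 5 past either edgeR test. Isg15, a ubiquitin-like protein that is attached to other proteins after interferon, had 1.75, 2.35 and 4.14 CPM (lowest, median and highest) in withdrawal and 1.76, 1.88, 1.89 and 1.30 CPM in control. Withdrawal 3 and 5 were within the controls, and the log2 change was 0.56 ± 0.27 in 10 libraries and 0.41 ± 0.23 in 8. Parp14, an ADP-ribosyltransferase, had 5.43, 8.17 and 16.1 CPM (lowest, median and highest) in withdrawal and 8.08, 5.79, 5.18 and 6.30 CPM in control. Withdrawal 1, 3 and 5 were below control 1, and the log2 change was 0.65 ± 0.36 in 10 libraries and 0.41 ± 0.35 in 8.

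Herc6, the main ISG15 ligase of the mouse, had a log2 change of 0.10, Parp9 0.10 and its partner, the ubiquitin ligase Dtx3l, -0.08. These were -0.23, -0.15 and 0.06 in the 8 libraries, so that none of the 3 kept its sign. Herc6 shared 22.4% of its windows with another annotated gene.

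Of the other induced genes, Xaf1, which counters an inhibitor of cell death, had 6.36, 10.9 and 18.4 CPM (lowest, median and highest) in withdrawal and 6.58, 5.52, 5.30 and 6.49 CPM in control. Only withdrawal 3 was within the controls, and the log2 change was 0.91 ± 0.26 in 10 libraries, with an edgeR adjusted p of 0.261, and 0.67 ± 0.21 in 8, with 0.0643. Rtp4, a chaperone that helps receptors reach the cell surface, had 2.59, 5.05 and 8.58 CPM (lowest, median and highest) in withdrawal and 3.45, 3.81, 1.46 and 2.13 CPM in control. Withdrawal 5 lay within the controls, and the log2 change was 0.98 ± 0.37 in 10 libraries and 1.00 ± 0.35 in 8, with 12.4% of its windows shared with another annotated gene.

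Ifi27, a small interferon-induced membrane protein, had the highest FPKM of this group, 39.2. It had 23.3, 55.0 and 134 CPM (lowest, median and highest) in withdrawal and 56.0, 30.0, 42.9 and 53.7 CPM in control. Withdrawal 1, 3 and 5 lay below control 1 and 4, and the log2 change was 0.51 ± 0.43 in 10 libraries and -0.003 ± 0.326 in 8. Lgals3bp, a secreted glycoprotein, had a log2 change of 1.24 ± 0.48 in 10 libraries and 0.71 ± 0.36 in 8. Its highest library was withdrawal 2 at 123 CPM and its lowest control 2 at 11.4 CPM. Sp100, a nuclear body protein, Trim30a, a tripartite motif protein, and Ifi35 had log2 changes of 0.47, 0.47 and 0.12. Sp100, Trim30a and Ifi35 were at 0.29, 0.47 and -0.21 in the 8 libraries. Ifi44, below the floor and not tested, averaged 2.24 ± 0.97 CPM in withdrawal and 1.00 ± 0.40 CPM in control (SD, n = 6 and 4).

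All 10 genes of MHC class I presentation had log2 changes above 0 in both sets of libraries, with medians of 0.49 in 10 libraries and 0.26 in 8. Psmb8 and Psmb10, subunits of the immunoproteasome, had the smallest p-values of the 10 in the 10-library fit. Psmb10 had 10.6, 14.2 and 16.0 CPM (lowest, median and highest) in withdrawal and 10.5, 11.6, 7.80 and 9.96 CPM in control. Withdrawal 2 was lowest of its group and below control 2, and the other 5 withdrawal libraries, at 13.5 CPM or above, were higher than all controls. Its log2 change was 0.48 ± 0.14 in 10 libraries, with an edgeR adjusted p of 0.267, and 0.63 ± 0.12 in 8, with 0.0109. The larger value without withdrawal 2 and control 2 set Psmb10 and Ifit2 apart from most members, whose values were smaller without them.

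Psmb8, another catalytic subunit of the immunoproteasome, had 2.75, 4.44 and 6.01 CPM as the lowest, median and highest withdrawal values, and 3.19, 1.71, 2.01 and 1.899 CPM in control. Withdrawal 3 lay below control 1. The log2 change was 0.99 ± 0.26 in 10 libraries, with an edgeR adjusted p of 0.237, and 0.78 ± 0.26 in 8, with 0.0791. Psmb9, the third of these subunits, had a log2 change of 1.02 ± 0.48 in 10 libraries and 0.64 ± 0.41 in 8, at 0.945 to 3.13 CPM in withdrawal and 0.221 to 1.25 CPM in control.

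B2m, the invariant light chain of class I molecules, had the highest FPKM of all 49 genes, 93.5. It had 61.02, 80.8 and 143 CPM (lowest, median and highest) in withdrawal and 82.9, 72.6, 57.0 and 63.9 CPM in control. Control 1 was above 3 withdrawal libraries, and the log2 change was 0.35 ± 0.23 in 10 libraries and 0.18 ± 0.15 in 8. The heavy chains H2-K1 and H2-D1 had log2 changes of 0.71 ± 0.29 and 0.56 ± 0.19 in 10 libraries, and 0.35 ± 0.19 and 0.34 ± 0.12 in 8. Control 2 was lowest in both, at 16.0 CPM for H2-K1 and 26.9 CPM for H2-D1. The non-classical heavy chain H2-T23 had a log2 change of 0.49 in 10 libraries and 0.19 in 8, with 13.1% of its windows shared with other genes. The transporter genes Tap1 and Tap2 had 0.41 and 0.35, and Tapbp, which encodes the loading factor tapasin, 0.22. Tap1, Tap2 and Tapbp were at 0.09, 0.08 and 0.01 in the 8 libraries.

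Upstream of the members, interferon transcripts themselves were at or near 0. Of 10 interferon genes, none reached the FPKM floor. Ifnb1 had 4 counts in all withdrawal libraries together and 0 in control, Ifng had 3 in withdrawal and 3 in control, Ifne had 1 in withdrawal, and the other 7 had 0 in every library. A count of 0 in a library allows up to 0.148 to 0.180 CPM in withdrawal and 0.136 to 0.200 CPM in control, for counting error only. These limits use raw library totals, without the scaling factors applied to the other CPM values. The receptors, kinases and their feedback inhibitors had 7 of 12 tested above 0 in 10 libraries, with a median log2 change of 0.02, and 0 of 12 passed. In the 8 libraries 3 of 12 were above 0, with a median of -0.10, against 52.1% of all genes above 0. The receptor kinase Tyk2 fell in the 8 libraries, by 0.41 ± 0.09 on the log2 scale, with an edgeR adjusted p of 0.0172. It was the only gene of the 12 called in that fit, where edgeR called 6.17% of all genes lower. Tyk2 had 19.5, 20.7 and 25.9 CPM (lowest, median and highest of 6) in withdrawal and 24.9, 35.3, 31.2 and 25.7 CPM in control.

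The adaptors of nucleic acid sensing had 7 of 14 above 0 in 10 libraries, with a median log2 change of -0.03, and 0 of 14 passed. In 8 libraries 3 of 14 were above 0, with a median of -0.17, and edgeR called 2, both lower, where it called 6.17% of all genes lower. The endosomal RNA receptor Tlr7 fell in the 8 libraries by 0.85 ± 0.14 on the log2 scale, with an edgeR adjusted p of 0.00707. Tlr7 ran from 2.61 to 3.501 CPM in withdrawal and from 4.54 to 7.28 CPM in control, so the groups did not overlap in any of the 10 libraries. Irf3, the factor that turns on the first interferon genes, fell by 0.23 ± 0.06 on the log2 scale in the 8 libraries, with an edgeR adjusted p of 0.0434. With all 10 libraries the edgeR adjusted p-values were 0.242 for Tyk2, 0.0912 for Tlr7 and 0.619 for Irf3.

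Of 40 further interferon-stimulated genes tested outside the 49, 35 had a log2 change above 0 in 10 libraries. The median of the 40 was 0.38, edgeR called 0 of them, and 51.0% of all genes were above 0. At an unadjusted edgeR p under 0.05, 14 of the 40 were higher and 1 lower, against 1131 and 1723 of all 19256 genes. In the 8 libraries 29 of 40 were above 0, with a median of 0.29, and edgeR called 4, all higher. Of all genes, 52.1% were above 0 and 4.80% were called higher in that fit. Gbp4, an interferon-induced guanylate-binding GTPase, had 5.13, 13.0 and 15.2 CPM (lowest, median and highest) in withdrawal and 4.56, 2.04, 2.50 and 2.41 CPM in control. The groups did not overlap, and the log2 change was 2.03 ± 0.35 in 10 libraries, with an edgeR adjusted p of 0.0686, and 1.82 ± 0.36 in 8, with 0.0131. Its relative Gbp6 rose by 1.33 ± 0.34 in 8 libraries, the immunity-related GTPase Irgm1 by 0.65 ± 0.18 and the RNA-editing enzyme Adar by 0.20 ± 0.05, with edgeR adjusted p-values of 0.0345, 0.0448 and 0.0354.

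Of 11 further class I presentation genes tested, 9 were above 0 in 10 libraries, with a median log2 change of 0.32, and 7 in 8 libraries, with a median of 0.21. Of all genes, 51.0% were above 0 in 10 libraries and 52.1% in 8. Psme1, a subunit of the interferon-induced proteasome activator, rose by 0.34 ± 0.08 on the log2 scale in the 8 libraries, with an edgeR adjusted p of 0.0322. Psme1 was the only gene of the 11 called in that fit, where edgeR called 4.80% of all genes higher. With all 10 libraries its log2 change was 0.44 ± 0.17, with an edgeR adjusted p of 0.297. Of 7 MHC class II genes, 5 were above 0 in 10 libraries and 3 in 8, and edgeR called 0 of 7 in either set, with 0 at an unadjusted p under 0.05. Their summed level was 58.1 to 166 CPM in withdrawal and 71.1 to 101 CPM in control. The class II genes with the smallest p were Ctss, the protease that trims the invariant chain, with a log2 change of 0.20 ± 0.18, and H2-Ab1, with 0.82 ± 0.75.

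**Figure D4:**
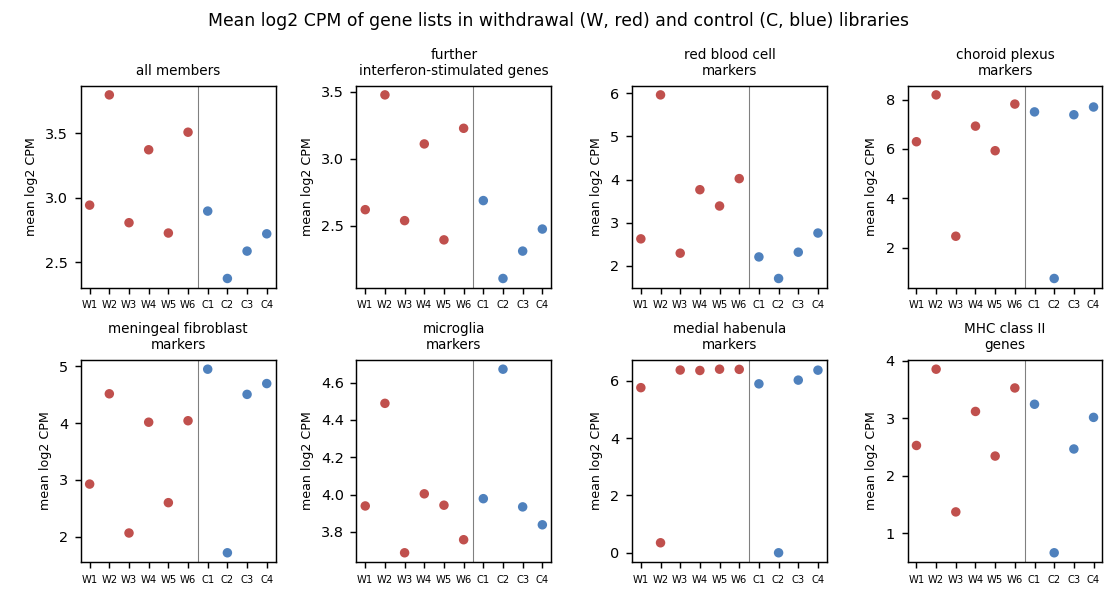
Each panel gives the mean log2 CPM of 1 gene list in each library, withdrawal (red, W1 to W6) left of control (blue, C1 to C4). The 48 members and the further interferon-stimulated genes both have W2, W6 and W4 as their highest libraries, as do the red blood cell markers. For choroid plexus markers W2 and W6 are the highest and W4 lies below C1, C3 and C4.

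Of the markers of other cell types, the red blood cell markers had log2 changes above 0 in 5 of 5, with a median of 1.89 in 10 libraries and 0.81 in 8. After adjustment edgeR called none. At an unadjusted edgeR p under 0.05, 5 of 5 were higher in 10 libraries, against 5.87% of all genes. In the 8 libraries 2 of 5 were higher at that p, against 2601 of all 19256 genes. The red blood cell markers were led by the globins Hbb-bs and Hba-a1. They summed to 632 CPM in withdrawal 2, 173 in withdrawal 6 and 139 in withdrawal 4. Withdrawal 1, 3 and 5 had 49.5 to 106 CPM, and control had 30.8 to 76.2 CPM. Of 12 white blood cell markers, 4 passed the floor. Ptprc, which passed, and Ccr2, which did not, had the highest CPM, and all 12 markers summed to 21.9 CPM in withdrawal 2, 6.81 to 10.2 CPM in the other withdrawal libraries and 5.52 to 9.78 CPM in control. The 6 choroid plexus markers, mostly Ttr and Kl, summed to 96.2 to 12780 CPM in withdrawal and 81.1 to 9939 CPM in control. Their highest withdrawal libraries were 2, 6 and 4, and their lowest libraries were withdrawal 3 and control 2. The meningeal markers, led by Dcn and Col1a2, summed to 43.0 to 218 CPM in withdrawal and 27.5 to 258 CPM in control, with 0 of 7 above 0. By summed CPM, withdrawal 2, 6 and 4 were also highest of their group for meningeal markers, white blood cell markers and MHC class II genes. For microglia and oligodendrocyte markers the highest were withdrawal 2, 4 and 1.

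The markers of microglia, the resident immune cells of the brain, Csf1r among them, were above 0 in 2 of 12, with a median log2 change of -0.13, and summed to 233 to 411 CPM in withdrawal and 274 to 470 CPM in control. The endothelial and pericyte markers, led by Rgs5 and Slco1a4, were above 0 in 4 of 12 and summed to 358 to 488 CPM in withdrawal and 458 to 527 CPM in control. The astrocyte markers, led by Slc1a3 and Gfap, were above 0 in 1 of 6, and the oligodendrocyte markers in 0 of 6. In the 8 libraries edgeR called 2 endothelial, 2 astrocyte, 5 oligodendrocyte, 4 meningeal and 5 hippocampal and cortical markers, all lower in withdrawal, where it called 6.17% of all genes lower. The part of blood, choroid plexus, meninges or any other tissue in the members' values was not tested.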

How the data were processed

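The authors deposited 1 table with raw read counts per Ensembl gene and, beside them, FPKM values for each library, per the file headers. The count columns held whole numbers. The FPKM columns were scaled by the authors to gene length and library total, and served for the floor and for limma. Per the submitters' processing notes, cutadapt 1.9.1, HISAT2 2.2.1 and HTSeq 0.6.1 were used with build mm39. The annotation release and the strand setting are not given in the sources used here, so overlapping antisense genes cannot be told apart. GENCODE M21 named 52073 of the 56691 identifiers. Libraries held 15023448 to 22026333 counts, of which at least 99.76% were kept. No 2 of the 45 library pairs were identical.

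The 19256 genes whose FPKM averaged 0.3 or more were tested with edgeR 4.0.16 (quasi-likelihood, TMM, R 4.3.3), withdrawal (6) minus control (4), 2-sided, with Benjamini-Hochberg adjustment and a threshold of 0.05, with no covariate. The steps were tested on simulated data. Counts were drawn there for each gene on its own, so differences in tissue content shared by many genes were not simulated. Levels are CPM with TMM factors, and scores are mean log2 CPM with a prior count of 2. Alternatives were RLE factors, other floors, DESeq2 1.42.0, limma 3.58.1 on log2(FPKM + 1) and log2(FPKM + 0.1), each library left out, withdrawal 2 and control 2 left out together, and a replicate block. For each library left out of the 8, and for RLE factors there, the choice was made after seeing the data. Lists are described by counts and medians, with no test of their own. The members, the lists and the libraries doubted were chosen with earlier results of these data known. The lowest, median and highest withdrawal values and each control value are given for members called in the 10 or the 8 libraries. In each role they are also given for the 2 with the smallest p and the 1 with the highest FPKM. Single values or ranges are given for some other members, among them Lgals3bp, Mx1, Psmb9, H2-K1 and H2-D1. Values of Bst2 and Oasl2 were added after they were seen. Of other pathway lists, genes called in either set are named, or else the 2 with the smallest p, and of marker lists the 2 most abundant, except for some genes that are not reported here. Shared reads were judged from identical 75-base windows of GENCODE M21 transcripts. Reads carry no molecular identifiers, so limits from counts cover counting error only.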

Additional observations from a re-analysis of the deposited data

Results flagged for a closer look

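In 5 of 96 groups of libraries (48 genes, withdrawal and control each) the highest or lowest library stood far from the rest by Dixon's criterion, which is 5.2% and what chance alone gives (about 5%). Over all genes tested the share was 15.5% in withdrawal and 12.1% in control. Withdrawal 2 stood high for Usp18, at 6.36 CPM, and for Oas1a, at 2.86 CPM. Control 2 stood high for Mx1, at 1.21 CPM, and low for Parp9, at 6.01 CPM, and for Tap2, at 4.74 CPM. All 5 values came from the pair of libraries with almost no medial habenula transcripts. These libraries were often extreme over all genes tested too. Control 2 was the highest of the 10 libraries in 29.1% and the lowest in 27.7%, and withdrawal 2 in 13.6% and 16.0%.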

How the results depend on the processing

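The number of all genes called was 27, against 414 with DESeq2, 14 and 7 with limma on log2(FPKM + 1) and log2(FPKM + 0.1), 3 with the replicate block and 2113 without withdrawal 2 and control 2. With 1 library left out it ran from 4 to 802, with 802 without withdrawal 2, 30 without control 2 and 4 to 6 without any other library. The number of members called was 0, against 6 with DESeq2, 1 with genes of at least 1 FPKM, 4 without withdrawal 2 and control 2, and 0 to 3 with 1 library left out, again highest without withdrawal 2 (Ifit2, Cmpk2 and Psmb10). In the 8 libraries, leaving out 1 more gave 850 to 2997 genes (lowest without control 3) and 2 to 5 members. The fits with 5 members added H2-D1 without control 1, Xaf1 without withdrawal 3 and Ifitm2 without withdrawal 6. Ifitm2 was below 0 in the 8 libraries, with a log2 change of -0.72. The cause of these differences was not tested. The count of members above 0 was 42 to 47 of 48 in all fits of 48 genes, their median log2 change 0.32 to 0.63, and the difference in mean log2 CPM 0.336 to 0.64, without a change of sign.

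Against the 10 libraries, 818 of 853 values of single members under an alternative kept their sign and side of the threshold. Another 14 newly passed and 21 changed sign, in 7 members. Of these 7, Ifi27 had a log2 change of 0.51 in the 10 libraries, near the median of all members. The rest of the 7 had -0.08 to 0.15 there. Of 36 values for the 4 members called in the 8 libraries, 30 kept both and 6 no longer passed (Irf7 in 4, Ifit2 in 2). Without withdrawal 2 and control 2, Stat2 was 0.16, Dhx58 -0.15, Herc6 -0.23, Dtx3l 0.061, Parp9 -0.15, Ifi27 -0.003 and Ifi35 -0.21. With limma on log2(FPKM + 0.1) and log2(FPKM + 1), Stat2 was 0.07 and 0.06, and Dtx3l 0.027 and 0.015. With 1 library left out, Stat2 ran from -0.13 to 0.15, Dhx58 from -0.077 to 0.48, Herc6 from -0.083 to 0.19, Dtx3l from -0.16 to 0.10, Parp9 from -0.083 to 0.23 and Ifi35 from -0.125 to 0.35. With the replicate block, Parp9 was -0.04 and Ifi35 -0.056, no member was called and their median was 0.53. The deviations of same-numbered libraries from their group means correlated at 0.025, 0.275, -0.117 and 0.188 for numbers 1 to 4. Only control 2 correlated best with its own number, and it shared its low medial habenula markers with withdrawal 2. Correlations of this size cannot decide whether the numbers pair the libraries.

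Depth limits the scarce genes: 8 of 48 members had a mean count under 50 and 31 under 200, with 16.7 the lowest.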
